A study of Mus musculus with 13 samples.

Results

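The genes described here are 10 immune checkpoint and lymphocyte-type receptor genes, named as Pdcd1, Lag3, Havcr2, Vsir, Cd200r1, Cd274, Cd86, Tnfsf8, Cd5 and Cd3e, among the 55536 genes measured in mouse frontal cortex. They were chosen by name with their differences between 5XFAD and wild-type mice known, so those differences are given as a description and no p-value is attached to them. The samples were 4 libraries from wild-type mice aged 6 months, 3 from 5XFAD mice aged 6 months, 3 from wild-type mice aged 11 months and 3 from 5XFAD mice aged 11 months. The labels give the strain B6SJLF1/J for the wild type and the line name alone for the transgenic mice. 5XFAD mice carry mutated human transgenes, among them APP, under regulatory sequence of the mouse Thy1 gene, which is active in neurons, and are used as a model of amyloid deposition. No treatment is recorded, and nothing in the labels says whether each library is a separate mouse, so the p-values refer to variation among libraries and part of it may be technical.

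Checkpoint receptors restrain immune cells. PD-1, the product of Pdcd1, is carried by activated T cells and binds PD-L1, the product of Cd274, on antigen-presenting and other cells. The phosphatase SHP-1, from Ptpn6, and its relative SHP-2, from Ptpn11, carry the signal of several such receptors. CD86 is the costimulatory ligand of CD28 and CTLA-4 on T cells, and CD30 ligand, from Tnfsf8, is a tumour necrosis factor family ligand of the receptor encoded by Tnfrsf8. CD5 is a scavenger-receptor family protein of T cells and some B cells, and CD3 epsilon, from Cd3e, is a chain of the T cell receptor complex. In the brain, microglia, the resident macrophages, are known to express several genes of this kind, among them Havcr2, Lag3, Vsir and Cd86.

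The 10 genes lie on 8 chromosomes of GRCm38, with positions taken from the GENCODE M21 annotation. Pdcd1 spans chromosome 1, 94038305 to 94052553, on the minus strand, and Lag3 spans chromosome 6, 124904361 to 124911705, on the minus strand, 16.1 kb from the gene of the T cell coreceptor Cd4. Cd274 spans chromosome 19, 29367455 to 29388095, on the plus strand, 22.8 kb from Pdcd1lg2, which encodes the other PD-1 ligand. Cd5 is on the same chromosome at 10717116 to 10739002, minus strand, 50.3 kb from its relative Cd6. Cd3e spans chromosome 9, 44998740 to 45009627, minus strand, 11.4 kb from Cd3d and 18.3 kb from Cd3g, which encode other CD3 chains. Havcr2 is at chromosome 11, 46454935 to 46481255, plus strand. Vsir is at chromosome 10, 60346851 to 60372684, plus strand. Tnfsf8 is at chromosome 4, 63831308 to 63861347, minus strand. Cd86 (36603869 to 36666081, minus strand) and Cd200r1 (44765736 to 44794978, plus strand, 16.8 kb from its relative Cd200r4) are both on chromosome 16. The strand setting of the authors' counting is not given in the sources used here, which matters where genes overlap on opposite strands. Vsir lies within the span of Cdh23 on the other strand but shares 0 exonic bases with it, and Cdh23 had 10 to 62 counts. Cd274 shares 511 exonic bases with an antisense gene that had 0 to 8.06 counts, and Cd3e shares 135 with one that had 0 counts.

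RefSeq promoter windows on GRCm38.p6, from 250 bases before to 50 after the start of the gene, were matched for 7 of the 10 genes: Pdcd1, Cd274, Havcr2, Vsir, Tnfsf8, Cd5 and Cd3e. Lag3, Cd86 and Cd200r1 had no entry. The windows of 5 genes are shown. Pdcd1 and Tnfsf8 had the largest ratios between genotypes. Cd274, Havcr2 and Cd5 are a ligand, a checkpoint receptor and a lymphocyte gene that hold a searched motif. Each is read 5′ to 3′ on the strand of its gene. Capitals mark matches to the searched motifs, described after the sequences.
Pdcd1, chr1:94052504-94052803, minus strand: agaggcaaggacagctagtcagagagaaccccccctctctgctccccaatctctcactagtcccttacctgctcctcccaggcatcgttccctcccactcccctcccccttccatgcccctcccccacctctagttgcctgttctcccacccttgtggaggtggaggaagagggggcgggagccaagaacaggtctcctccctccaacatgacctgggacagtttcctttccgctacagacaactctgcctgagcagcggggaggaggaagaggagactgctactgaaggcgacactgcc
Tnfsf8, chr4:63861235-63861534, minus strand: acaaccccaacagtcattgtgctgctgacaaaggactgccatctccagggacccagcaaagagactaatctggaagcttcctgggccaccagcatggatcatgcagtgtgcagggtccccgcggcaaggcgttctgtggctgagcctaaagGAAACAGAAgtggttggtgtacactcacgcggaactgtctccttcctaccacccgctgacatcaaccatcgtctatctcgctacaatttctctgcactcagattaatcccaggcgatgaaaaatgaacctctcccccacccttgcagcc
Cd274, chr19:29367188-29367487, plus strand: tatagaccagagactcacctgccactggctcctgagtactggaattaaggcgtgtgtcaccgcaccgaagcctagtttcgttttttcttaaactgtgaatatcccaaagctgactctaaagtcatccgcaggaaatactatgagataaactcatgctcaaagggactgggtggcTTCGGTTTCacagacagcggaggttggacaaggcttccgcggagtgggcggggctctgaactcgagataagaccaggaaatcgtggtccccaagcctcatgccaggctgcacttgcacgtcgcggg
Havcr2, chr11:46454681-46454980, plus strand: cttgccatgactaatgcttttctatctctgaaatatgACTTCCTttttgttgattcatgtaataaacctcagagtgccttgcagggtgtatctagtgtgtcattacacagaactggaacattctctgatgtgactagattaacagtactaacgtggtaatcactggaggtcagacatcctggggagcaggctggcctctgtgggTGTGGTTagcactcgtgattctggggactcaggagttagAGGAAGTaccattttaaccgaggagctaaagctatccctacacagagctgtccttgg
Cd5, chr19:10738925-10739224, minus strand: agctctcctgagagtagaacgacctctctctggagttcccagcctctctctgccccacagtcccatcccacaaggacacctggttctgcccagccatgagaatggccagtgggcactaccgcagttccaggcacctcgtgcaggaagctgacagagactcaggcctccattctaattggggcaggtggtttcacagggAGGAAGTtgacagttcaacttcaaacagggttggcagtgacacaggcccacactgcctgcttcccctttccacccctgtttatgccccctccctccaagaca

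In all, 5 motifs were searched on both strands of the 7 windows and of all 32851 promoter windows of 300 bases, and no 2 of their matches overlapped in the 7. The ETS-type motif AGGAAGT was present in 3 of the 7 windows, those of Havcr2, Cd5 and Cd3e, and in 9.35% of all promoters. Havcr2 held it at bases 244 to 250 of the window and, on the opposite strand, at bases 38 to 44. In Cd5 it was at bases 199 to 205. The IRF-type motif GAAANNGAA was present in 2 windows, at bases 152 to 160 of Tnfsf8 and, on the opposite strand, at bases 175 to 183 of Cd274, against 8.56% of all promoters. The RUNX-type motif TGTGGTT was in the window of Havcr2 alone, at bases 205 to 211, against 5.27% of all promoters. The AP-1-type motif TGAGTCA (5.2% of all promoters) and the STAT-type motif TTCNNNGAA (8.3%) were in 0 of the 7. These matches describe letters in the windows and were not tested against the expression values.

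Each library held between 23618296 and 26615776 expected counts, an expected count being the RSEM estimate of reads per gene. Thy1, named here as a check of the labels after its values were seen, stood at 639 to 783 CPM (counts relative to the TMM-scaled library total) in wild type and 2492 to 3143 in 5XFAD at 6 months, and at 543 to 638 and 2155 to 3250 at 11 months. Cortical neuron and glia markers summed to 5707 to 11770 CPM in all libraries. The first wild-type library at 6 months stood apart by choroid plexus genes, which summed to 3399 CPM in it. The sex of the mice, read from the data, was uneven: 2 of 4 wild-type and 0 of 3 5XFAD libraries at 6 months and 1 of 3 and 2 of 3 at 11 months were female. The mitochondrial share of counts in wild type was 8.38% to 8.88%, against 9.94% to 9.99% in 5XFAD, at 6 months, and 7.89% to 11.43% and 10.1% to 11.3% at 11 months. Whether sex or the mitochondrial share played a part in the differences below was not tested, except for sex where stated.

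Most of these genes stood higher in 5XFAD at both ages, and the size of the difference varied from about as large as the spread between libraries to a near-absence in wild type. The filter on low counts kept 17483 genes, and 9 of the 10 genes passed it, all but Cd3e. Pdcd1 and Tnfsf8 passed through 5XFAD libraries alone, and Cd5 through the 5XFAD libraries at 11 months and 1 wild-type library, so their passing already reflects the difference. The threshold was an adjusted p under 0.05. At 6 months 4 of the 9 were past it and higher in 5XFAD (Pdcd1, Lag3, Havcr2 and Cd86), where 1.3% of all tested genes were. At 11 months 8 of the 9 were (all but Cd200r1), where 3.8% of all tested genes were. Every 5XFAD library stood above every wild-type library for 7 of the 10 genes at 6 months (6.97% of tested genes did so) and for 9 of the 10 at 11 months (10.4%), Cd3e included. Nothing is read from these counts, because the genes were chosen on these comparisons. In bulk tissue fewer or more cells of a type and less or more RNA per cell cannot be told apart.

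**Figure D1:**
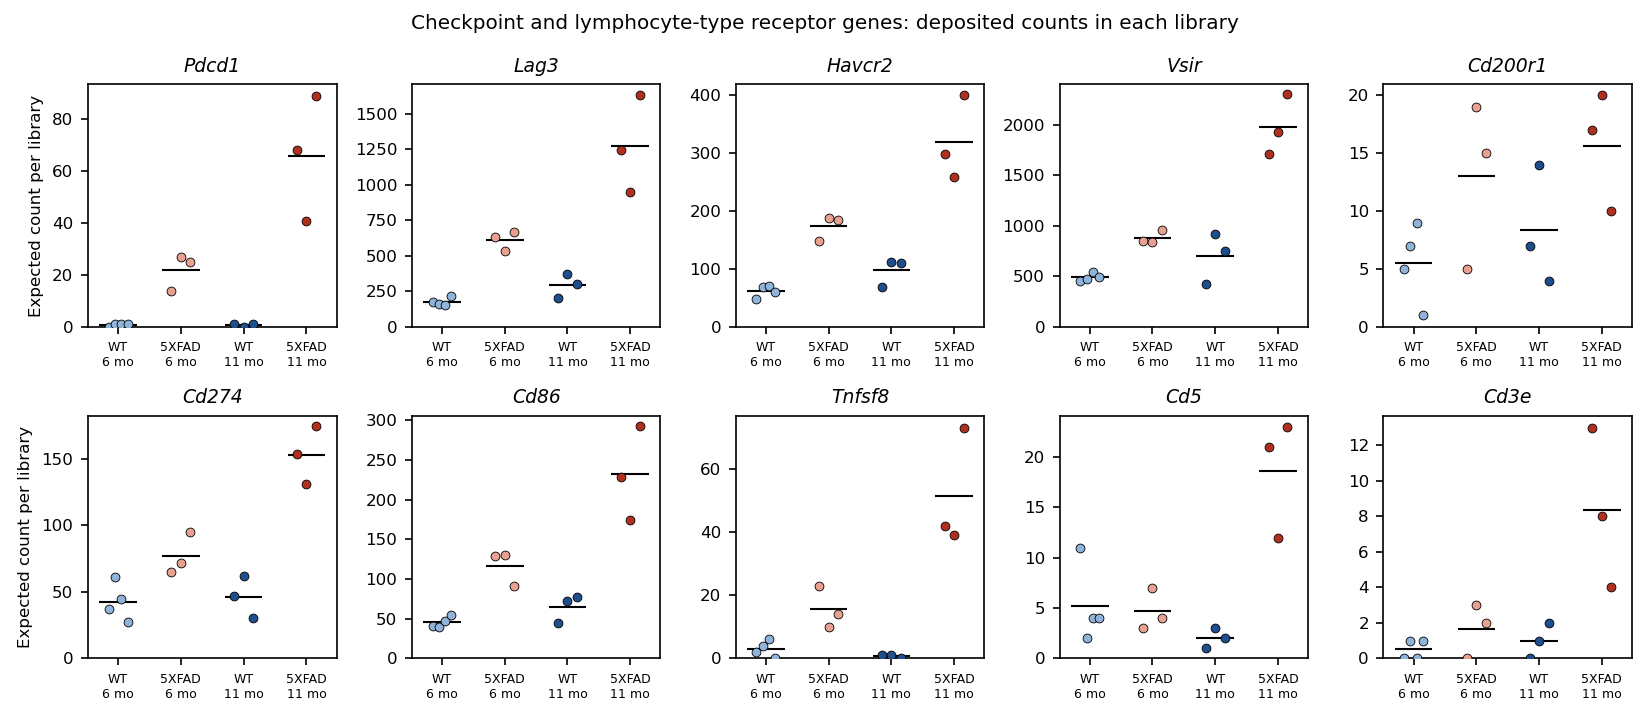
Expected counts of each of the 10 genes (vertical axis, linear from 0, a different scale per panel) in each of the 13 libraries (points), by genotype and age; horizontal lines are group means. Pdcd1 stayed at 0 or 1 count in all 7 wild-type libraries and reached 14 to 27 counts in 5XFAD at 6 months and 41 to 89 at 11 months.

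Among the inhibitory receptors, Pdcd1, which encodes PD-1, was nearly absent from wild-type cortex. It had 0, 1, 1 and 1 counts in the wild-type libraries at 6 months and 1, 0 and 1 at 11 months. In 5XFAD it had 14, 27 and 25 counts at 6 months and 68, 41 and 89 at 11 months. Each 5XFAD library thus stood above all 7 wild-type libraries, at levels that are still low for tissue of this depth. As wild type held only 3 counts in all at 6 months and 2 at 11 months, the difference is given as a ratio with its exact 95% interval, which covers counting error only. The ratio was 29.3 (9.6 to 146) at 6 months and 97.1 (26.5 to 807) at 11 months.

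Lag3, which encodes a receptor for MHC class II and other ligands, was well expressed in every library. Its counts in wild type were 178, 159, 156 and 214, against 634, 531 and 670 in 5XFAD, at 6 months. At 11 months wild type had 202, 372 and 300 and 5XFAD 1245, 948 and 1631. The genotypes did not overlap at either age, and the highest wild-type value, in the second 11-month library, was below the lowest 5XFAD value of either age. The log2 fold change was 1.78 ± 0.21 (SE) at 6 months and 2.09 ± 0.22 at 11 months.

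Havcr2, which encodes TIM-3, followed at a lower level. It had 48, 69, 71 and 61 counts in wild type and 148, 188 and 185 in 5XFAD at 6 months, and 69, 112 and 111 against 299, 258 and 401 at 11 months. Again no library of one genotype reached the range of the other at either age. The log2 fold change was 1.48 ± 0.21 at 6 months and 1.68 ± 0.22 at 11 months.

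Vsir, which encodes VISTA, a B7-family checkpoint protein of myeloid and T cells, had the most counts of the 10 genes in each of the 13 libraries. At 6 months wild type had 454, 474, 538 and 493 counts and 5XFAD 850, 841 and 958. At 11 months wild type had 427, 921 and 749 and 5XFAD 1711, 1929 and 2305. Within each age the genotypes did not overlap, but the second 11-month wild-type library, at 921, lay inside the 5XFAD range of 6 months. The log2 fold change was 0.85 ± 0.19 at 6 months and 1.47 ± 0.21 at 11 months.

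Cd200r1, which encodes the receptor for the neuronal protein CD200 on myeloid cells, was the exception among the receptors. It had 5, 7, 9 and 1 counts in wild type and 5, 19 and 15 in 5XFAD at 6 months, and 7, 14 and 4 against 17, 20 and 10 at 11 months. The genotypes overlapped at both ages. Its log2 fold changes of 1.23 ± 0.62 and 0.88 ± 0.63 were not past the threshold.

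Of the ligands, Cd274, which encodes PD-L1, was measurable in all libraries. It had 37, 61, 45 and 27 counts in wild type and 64.93, 72 and 95 in 5XFAD at 6 months. At 11 months wild type had 47, 61.88 and 30 counts and 5XFAD 153.97, 131 and 174.94. The genotypes lay close together at 6 months, where the highest wild-type library had 61 counts and the lowest 5XFAD library 64.93, and apart at 11 months. The log2 fold change was 0.86 ± 0.28, not past the threshold, at 6 months and 1.70 ± 0.29 at 11 months.

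Cd86, which encodes a costimulatory ligand of antigen-presenting cells, had 41, 40, 47 and 55 counts in wild type and 129, 130 and 91 in 5XFAD at 6 months. It had 44, 72 and 77 against 229, 174 and 293 at 11 months. The groups were separate at both ages. The log2 fold change was 1.35 ± 0.24 and then 1.81 ± 0.26. At 6 months it depended on the 5XFAD libraries kept: Cd86 was no longer past the threshold without the first or without the second of them, or on log2(TPM + 1) values in place of counts.

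Tnfsf8, which encodes CD30 ligand, had the second largest ratio of the 10 genes at 11 months. It had 2, 4, 6 and 0 counts in wild type and 23, 10 and 14 in 5XFAD at 6 months, and 1, 1 and 0 against 42, 39 and 73 at 11 months. The groups did not overlap at either age. Its fitted log2 fold change at 6 months was 2.34 ± 0.61, not past the threshold in edgeR, though DESeq2 called it. At 11 months wild type held 2 counts in all, and the ratio was 75.5 (exact 95% interval 20.6 to 629).

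The lymphocyte-type receptors Cd5 and Cd3e stood apart from the checkpoint genes at 6 months. Cd5 had 11, 2, 4 and 4 counts in wild type and 3, 7 and 4 in 5XFAD at that age, with full overlap. The 11 counts were in the library with choroid plexus genes. The log2 fold change was -0.16 ± 0.61 with it and 0.48 without it, so no direction can be given at 6 months. At 11 months Cd5 had 1, 3 and 2 counts in wild type and 21, 12 and 23 in 5XFAD, without overlap, and the log2 fold change was 3.11 ± 0.66. It was no longer past the threshold without the first wild-type or without the third 5XFAD library of that age.

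Cd3e, part of the T cell receptor complex, had 0, 1, 0 and 1 counts in wild type and 0, 3 and 2 in 5XFAD at 6 months, and 0, 1 and 2 against 13, 8 and 4 at 11 months. The ratio was 3.33 (exact 95% interval 0.545 to 35) at 6 months and 8.17 (2.49 to 42.3) at 11 months. The groups overlapped at 6 months and not at 11 months. With the filter on low counts removed, its log2 fold change of 2.92 at 11 months was not past the threshold.

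**Figure D2:**
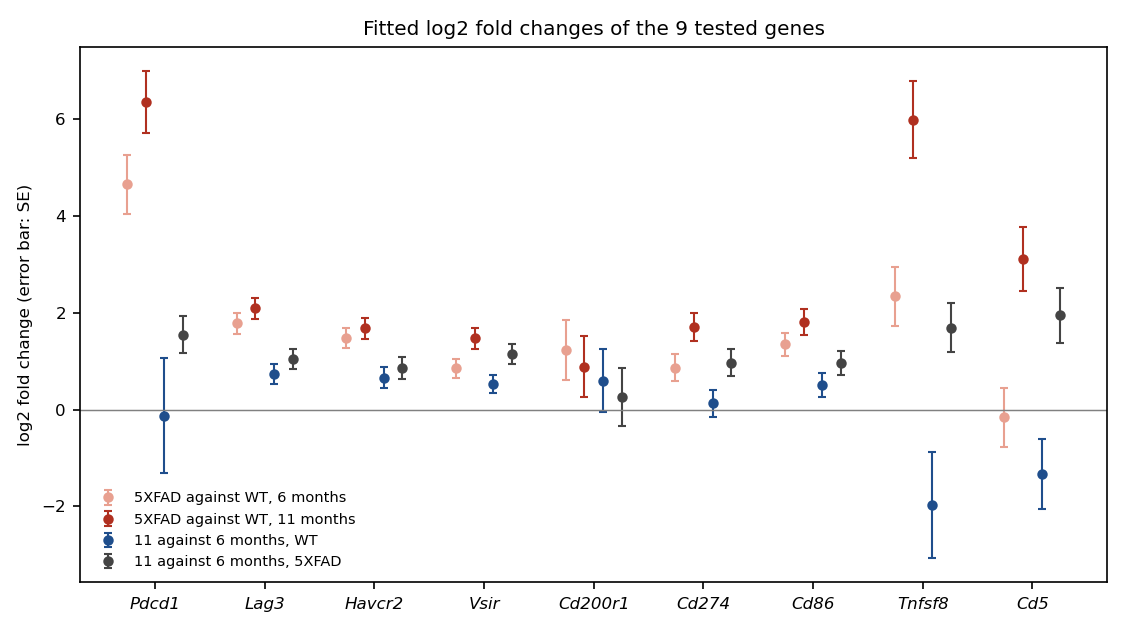
Fitted log2 fold changes (points) with standard errors (bars) of the 9 tested genes for both genotype comparisons and both age comparisons; the vertical axis is a log2 scale. Pdcd1 at both ages and Tnfsf8 at 11 months rest on 2 or 3 wild-type counts in all, and their fitted values depend on how such counts are moderated.

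Levels were compared between genes on the deposited TPM scale, which is per transcript length, as mean ± SD over the 4 or 3 libraries of a group. In wild type at 6 months Vsir (6.96 ± 0.446) and Lag3 (5.56 ± 0.946) led with overlapping ranges, followed by Cd86 (1.95 ± 0.528), Havcr2 (1.46 ± 0.228) and Cd274 (0.695 ± 0.236). The order of the first pair differed in 5XFAD. There Lag3 had 17.4 ± 1.2 TPM at 6 months and 36.5 ± 8 at 11 months, and Vsir 9.78 ± 0.466 and 25.2 ± 3.6, without overlap between the 2 genes at either age. Havcr2 and Cd86 overlapped in all 4 groups. Pdcd1 was the lowest of the 10 genes in wild type at 6 months, at 0.0225 ± 0.015 TPM. In 5XFAD at 11 months it reached 1.97 ± 0.635 TPM, a range that overlapped that of its ligand gene Cd274 (2.3 ± 0.235) and lay above that of Tnfsf8 (0.72 ± 0.218). Cd5 (0.517 ± 0.153), Cd200r1 (0.467 ± 0.163) and Cd3e (0.333 ± 0.212) closed the order there with overlapping ranges. The added 1 shrinks the fold changes of low genes on the log2(TPM + 1) scale. That of Cd86 at 6 months was 0.60 there, against 1.35 from the counts. Before anything was added, its genotypes already lay closer in TPM than in CPM at that age. In TPM wild type had 1.46 to 2.6 and 5XFAD 2.63 to 4.85, and in CPM 1.625 to 2.247 and 3.536 to 5.499. The share of the added 1 in this gap was not tested.

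The comparison of ages asked whether the genes changed between 6 and 11 months within a genotype. The choice of genes did not use the comparison of ages in wild type, though its libraries are shared with the genotype comparisons that were used. In it 0 of the 9 tested genes passed edgeR's test, against 3.71% of all tested genes in either direction. With 0 to 1 counts of Pdcd1 and 0 to 6 of Tnfsf8 per wild-type library, these 2 genes had little room to pass. Nothing is read from the 0 of 9 beside that share. Unadjusted p was under 0.05 for 3 genes, and DESeq2 called 2 of them, Havcr2 and Lag3. Lag3 had a log2 fold change of 0.73 ± 0.21 (edgeR quasi-likelihood test with Benjamini-Hochberg adjustment, adjusted p = 0.0648), Havcr2 of 0.66 ± 0.22 (edgeR adjusted p = 0.0882) and Vsir of 0.53 ± 0.19 (edgeR adjusted p = 0.124). This rested on the first 11-month library. It had the lowest values of its group for all 3, and without it 3 genes (Havcr2, Lag3 and Vsir) passed. Its microglial identity genes summed to 345 CPM, the lowest of its group, where the highest was 600 CPM. Cd274 had a log2 fold change of 0.13 ± 0.28, and Tnfsf8 and Cd5 had values of -1.97 ± 1.10 and -1.33 ± 0.72 with standard errors that reflect their few counts.

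In 5XFAD 5 of the 9 genes rose between 6 and 11 months, where 4.84% of all tested genes rose. This comparison shares its libraries with the genotype comparisons on which the genes were chosen, so it is not independent of the choice. Vsir rose by 1.15 ± 0.20 on the log2 scale (edgeR adjusted p = 0.0104), Lag3 by 1.04 ± 0.21 (edgeR adjusted p = 0.016) and Pdcd1 by 1.55 ± 0.39 (edgeR adjusted p = 0.032). Havcr2 rose by 0.86 ± 0.22 (edgeR adjusted p = 0.0313) and Cd86 by 0.96 ± 0.25 (edgeR adjusted p = 0.0349). Cd274 (0.97 ± 0.28), Tnfsf8 (1.69 ± 0.51) and Cd5 (1.95 ± 0.57) had edgeR adjusted p-values of 0.0541, 0.058 and 0.0528 and so missed the threshold. Of the 5XFAD libraries, Cd5 reached the filter's cutoff in those at 11 months alone, so its value here is a description. Pdcd1 and Tnfsf8 reached it in the 5XFAD libraries of both ages and in 0 wild-type libraries. Cd200r1 had a log2 fold change of 0.25 ± 0.60. These calls rested on few libraries. Without the first 5XFAD library at 6 months, or without the third at 11 months, 0 of the genes passed, without the second at 6 months 1 (Vsir) did, and without the third at 6 months or the first at 11 months 2 (Lag3 and Vsir) did. With sex as a covariate 2 passed, again Lag3 and Vsir. With only the 5XFAD groups in the model 8 passed, all but Cd200r1.

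Whether the genotype difference itself changed with age was tested as an interaction. In edgeR's test 0 of the 9 genes passed, and 1 of the 17483 tested genes did, which is 0.00572%. DESeq2 called 0 of the 9 as well. Unadjusted p was under 0.05 for 3 of the 9, namely Vsir, Tnfsf8 and Cd5. The interaction is built from the genotype comparisons on which the genes were chosen, and Tnfsf8 passed the filter through 5XFAD libraries alone, so these 3 are a description. The interaction of Cd5 was 3.28 ± 0.92 on the log2 scale and that of Tnfsf8 3.66 ± 1.17. The interaction was above 0 for 8 of the 9 genes, all but Cd200r1. The genotype differences at 11 months are thus not shown to differ from those at 6 months for any of the 9 genes.

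Microglial identity genes moved with the same comparisons, and their values are given beside those of the receptors. Of 12 such genes, 7 were higher in 5XFAD at 6 months and 11 at 11 months, where 1.3% and 3.8% of all tested genes were. Their median log2 fold changes were 0.93 and 1.21 where the medians over all genes were -0.01 and -0.03. This list and those below were chosen with earlier results of these data known. Their summed level in wild type was 334 to 341 CPM, against 633 to 678 in 5XFAD, at 6 months, and 345 to 600 and 1083 to 1505 at 11 months. The defining genes P2ry12 and Tmem119 were expressed in all groups. P2ry12 had 25.6 ± 1.44 CPM (n = 4) in wild type and 40.3 ± 6.01 (n = 3) in 5XFAD at 6 months, and Tmem119 had 23.7 ± 2.31 and 28.7 ± 2.77, and neither passed at that age. At 11 months P2ry12 rose from 32.7 ± 10.1 CPM (n = 3) in wild type to 68.7 ± 14.5 (n = 3) in 5XFAD, a log2 fold change of 1.07 ± 0.20 (edgeR adjusted p = 0.00661). Tmem119, at 33.0 ± 10.1 and 44.6 ± 9.48 CPM, overlapped and did not pass (0.44 ± 0.19, edgeR adjusted p = 0.295).

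Each gene was therefore also expressed per 1000 CPM of the summed microglial identity genes of the same library, as a description without a test. On this scale the 10 genes parted. Vsir and Cd274 overlapped between genotypes at both ages. The ratio of 5XFAD to wild-type means was 0.926 and 0.931 at 6 months and 1.09 and 1.22 at 11 months. Cd86 had ratios of 1.32 and 1.33, also with overlap. Havcr2 stood above wild type at 6 months (1.45) and overlapped at 11 months (1.21). Lag3 stood above at both ages, with 21.1 ± 3.48 against 37.3 ± 1.55 CPM per 1000 at 6 months and 24.9 ± 1.59 against 40.7 ± 4.84 at 11 months, ratios of 1.77 and 1.63. Pdcd1 remained far apart, at ratios of 15.3 and 30.8. Tnfsf8 overlapped at 6 months (2.69) and stood above at 11 months (26.4), and so did Cd5 (0.463 and 3.62). The sizes of the Pdcd1 ratios and of the Tnfsf8 ratio at 11 months are uncertain. Wild type held 3 and 2 counts of Pdcd1 in all at the 2 ages and 2 counts of Tnfsf8 at 11 months, and the count ratios given above had wide intervals. Cd3e and Cd200r1 overlapped at both ages. Dividing by a sum assumes that the gene comes from the cells that sum measures, which these data do not show for any of the 10 genes.

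**Figure D3:**
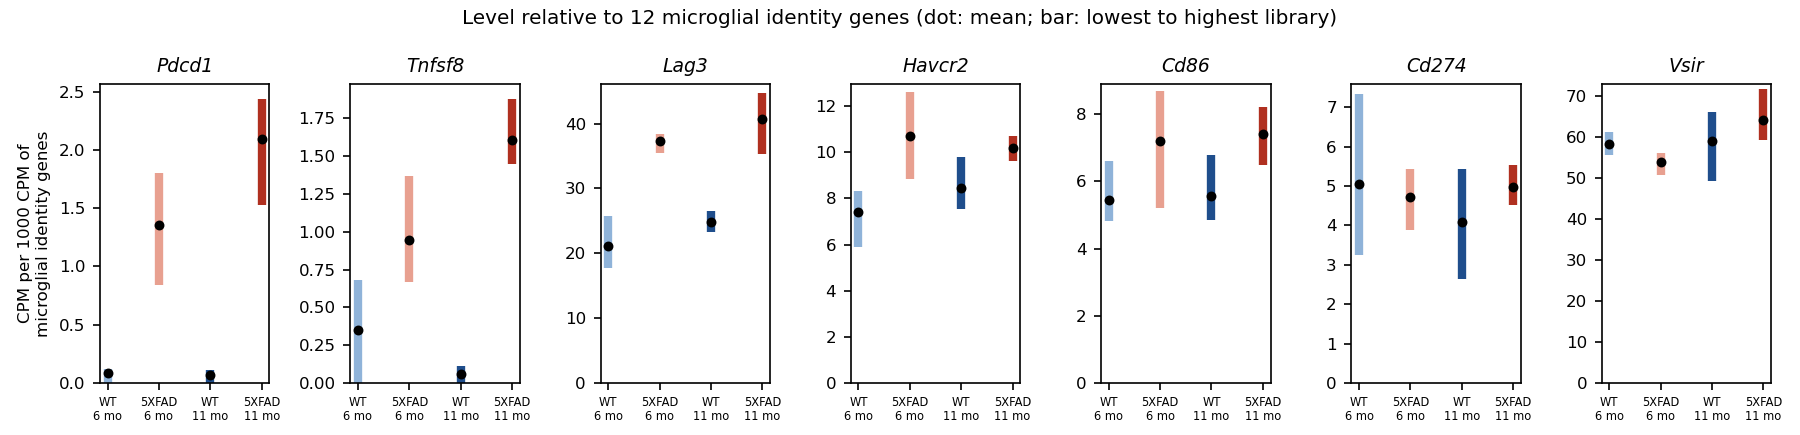
Level of 7 of the genes in CPM per 1000 CPM of 12 summed microglial identity genes (vertical axes, linear from 0); dots are group means and bars run from the lowest to the highest library. The bars of Pdcd1 and Lag3 in 5XFAD lie above those of wild type at both ages, while those of Vsir, Cd274 and Cd86 overlap.

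T lymphocyte genes were examined because Pdcd1, Cd5 and Cd3e are known as T cell genes. Of 18 such genes 11 could be tested, and edgeR called 0 of them at either age. Unadjusted p was under 0.05 for 1 of the 11 at 6 months and for 2 at 11 months, and DESeq2 called 0 and 1. Their median log2 fold change was -0.31 at 6 months and -0.03 at 11 months. Their summed level overlapped between genotypes, with 68.7 to 106.7 CPM in wild type and 51.8 to 86.7 in 5XFAD at 6 months, and 26.8 to 59.9 and 25.8 to 44.0 at 11 months. That sum was dominated by Cd4 and Trbc2. Cd4 had 666 to 1745 counts in wild type and 271 to 1118 in 5XFAD at 6 months, and 86 to 1023 against 74 to 406 at 11 months, with wide spread within each group and overlap at both ages.

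Several genes that define T cells more closely had few counts in wild type. At 11 months every 5XFAD library stood above every wild-type library for Cd3d, Cd3g, Cd8a, Cd8b1, Cd2 and Cd247 of the list. The same held for Cd3e, and for 10.4% of all tested genes. Of the genes named, Cd247 alone was tested, so that share comes from a set that leaves out genes with so few counts. Of the other genes of the list, Tcf7 lay below wild type and the rest overlapped. Cd8b1 and Cd2 were named after their values were seen. Cd3d, a CD3 chain, had 0 counts in all 7 wild-type libraries, 0, 1 and 1 in 5XFAD at 6 months and 3, 2 and 5 at 11 months, at least 3.27-fold higher than wild type at 11 months when 3 counts in the wild-type group are taken as the floor. Cd3g had 3, 0, 4 and 1 counts in wild type at 6 months, 0, 0 and 2 at 11 months and 5, 7 and 14 in 5XFAD at 11 months, a ratio of 12.7 (exact 95% interval 3.19 to 111). Cd8a, the coreceptor of cytotoxic T cells, had 0, 1 and 1 counts in wild type and 11, 13 and 5 in 5XFAD at 11 months, a ratio of 14.2 (3.6 to 123). None of these 3 had enough counts for the filtered test. With the filter removed, Cd8a and Cd247 passed at 11 months. Cd247, the CD3 zeta chain, had 6.15, 1.52 and 2.76 counts in wild type and 22.42, 11.71 and 31.90 in 5XFAD, and its log2 fold change was 2.51 ± 0.70 (edgeR adjusted p = 0.0591). Without the second 5XFAD library Cd247 passed, and without the third Cd8a did. Of the wild-type libraries, Cd247 reached the filter's cutoff in the second at 6 months alone (11.39 counts), and Cd8a reached it in none. Their passing the filter thus reflects the difference in part, and these values are a description. Trac, the constant region of the T cell receptor alpha chain, overlapped, with 4 to 19 counts against 16 to 21. Trbc1, a beta chain constant region, overlapped as well, with 0, 0 and 1.31 counts against 7.42, 1.09 and 4.31. Its ratio was 12.7 (exact 95% interval 1.91 to 542). Cd8b1 had 0 counts in each wild-type library and 4, 3 and 2 in 5XFAD at that age, and Cd2 had 3, 2 and 4 against 5, 6 and 5. Tcf7, a transcription factor gene of T cells named after its values were seen, had 120, 107 and 185 counts in wild type and 74, 87 and 69 in 5XFAD at 11 months. It was the other of the 2 genes with an unadjusted p under 0.05, in the opposite direction to Cd247, at -0.87 ± 0.28 (edgeR adjusted p = 0.111), and the 1 such gene at 6 months, at -0.56 ± 0.26. Lck and Cd6, also named after their values were seen, had log2 fold changes of -0.33 and -0.39 at 11 months and did not pass. Summed over Cd3d, Cd3e, Cd3g, Cd8a and Cd8b1, a sum chosen after the values were seen, 5XFAD had 30 to 36 counts per library at 11 months and 5 to 11 at 6 months, against 0 to 5 and 1 to 8 in wild type.

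The values of Pdcd1 can be set beside these. Its counts in 5XFAD at 6 months, 14 to 27 per library, stood apart from wild type when Cd3d, Cd3e, Cd3g and Cd8a had 0 to 3 counts each. On the TPM scale Pdcd1 had 2.13, 1.27 and 2.51 in the 5XFAD libraries at 11 months, where Cd3e had 0.56, 0.30 and 0.14, Cd3g 0.34, 0.47 and 0.85 and Cd8a 0.21, 0.29 and 0.08. Trac had 1.37, 1.26 and 1.44 TPM in these libraries and Cd247 1.08, 0.59 and 1.36. Which cells carried the Pdcd1 transcripts was not tested.

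**Figure D4:**
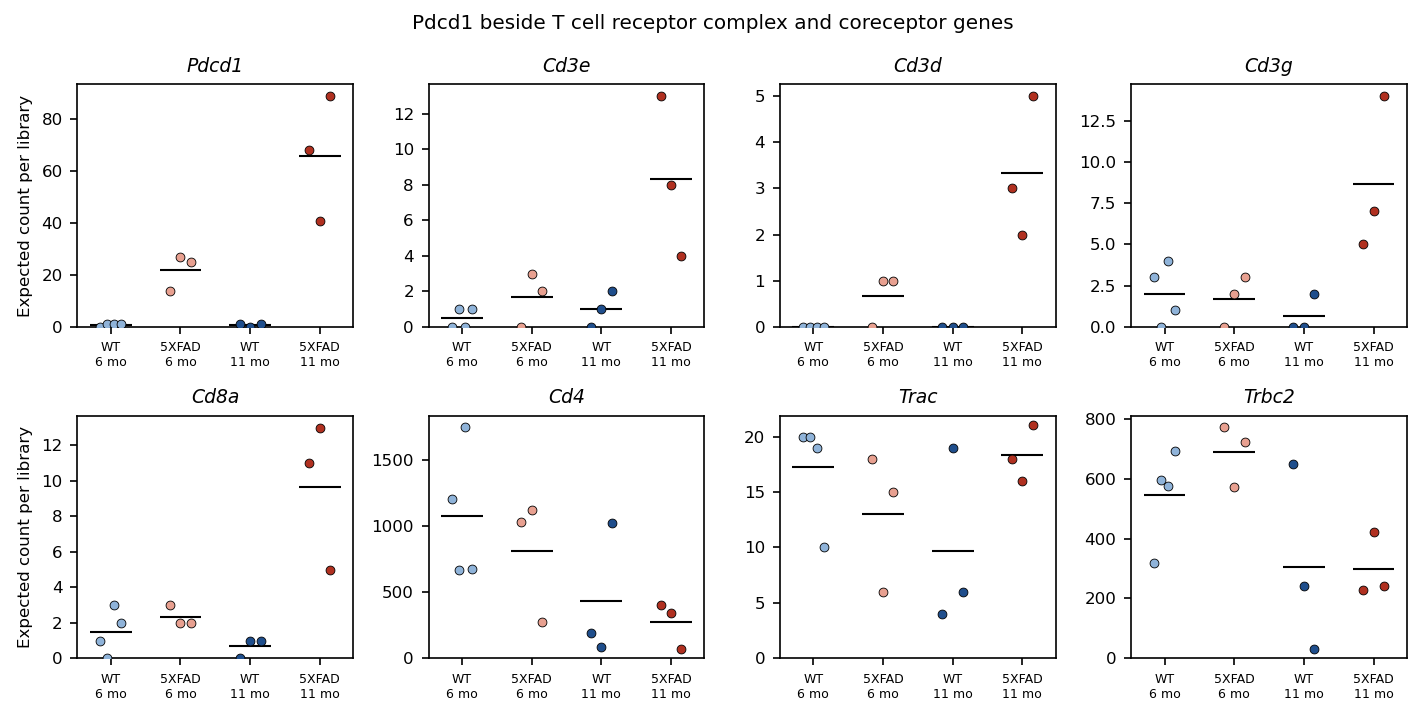
Expected counts of Pdcd1 and of 7 T cell receptor complex and coreceptor genes (vertical axes, linear from 0, a different scale per panel) in each of the 13 libraries, by genotype and age; lines are group means. Cd3e, Cd3d, Cd3g and Cd8a stood at 0 to 4 counts outside the 5XFAD libraries of 11 months, while Cd4 and Trbc2 varied within every group.

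Of the cytotoxic and natural killer genes 3 of 14 could be tested, and edgeR called 0 at either age. Unadjusted p was under 0.05 for 0 of them at 6 months and for 2 at 11 months, and DESeq2 called 0 and 1. The 1 was Ccl5, a chemokine gene of lymphocytes and other cells, with a log2 fold change of 3.17 ± 0.96 (edgeR adjusted p = 0.0801), which was named after its values were seen. Of the wild-type libraries, Ccl5 reached the filter's cutoff in the second at 6 months alone (16 counts). Its passing the filter thus reflects the difference in part. The summed level of the 14 genes in wild type was 1.16 to 1.55 CPM, against 1.67 to 2.75 in 5XFAD, at 6 months, and 0.279 to 1.17 and 1.73 to 3.36 at 11 months, so that the genotypes did not overlap at either age. Nkg7, a granule gene of cytotoxic cells named after its values were seen, had 0 counts in all 7 wild-type libraries and 6 and 24 counts in all in 5XFAD at 6 and 11 months, at least 2.66-fold and 7.85-fold higher on the same floor. Ncr1, which marks natural killer cells, had 0 or 1 count in every library. Klrb1c, a natural killer cell receptor gene also named after its values were seen, had 0 counts in all 7 wild-type libraries, 2, 4 and 4 in 5XFAD at 6 months and 5, 0 and 4 at 11 months, at least 4.44-fold and 2.94-fold higher on that floor. Of 10 B lymphocyte genes 3 could be tested, and edgeR, DESeq2 and an unadjusted p under 0.05 each gave 0 calls at both ages, with sums of 52.1 to 115 and 64.6 to 108 CPM at 6 months and 24.2 to 79.1 and 40.1 to 127 at 11 months. Of 10 dendritic cell genes 5 could be tested, edgeR and DESeq2 called 0 at either age, unadjusted p was under 0.05 for 2 at 6 months and 0 at 11 months, and sums overlapped at both ages. Of 10 border macrophage and monocyte genes 6 could be tested. At 6 months edgeR and DESeq2 called 0, with 2 at an unadjusted p under 0.05, and at 11 months edgeR called 1, Ccr2, the chemokine receptor of monocytes, at 2.53 ± 0.67 (edgeR adjusted p = 0.0428), with 3, 5 and 0 counts in wild type and 15, 13 and 21 in 5XFAD. Ccr2 passed the filter on low counts through these 5XFAD libraries alone, so its passing already reflects the difference and the call is a description. Of 8 neutrophil genes 1 could be tested, S100a9, named after its values were seen. In edgeR's test it passed at neither age. At 11 months its unadjusted p was under 0.05 and DESeq2 called it, with a log2 fold change of 3.38 ± 1.02 (edgeR adjusted p = 0.0843). Of the wild-type libraries, S100a9 reached the filter's cutoff in the fourth at 6 months alone (15 counts), so its passing the filter reflects the difference in part. The neutrophil sums overlapped at 6 months and not at 11 months, when they were 0.323 to 0.518 CPM in wild type against 0.62 to 4.96 in 5XFAD. Much of this was in the second 5XFAD library. At 11 months S100a9 had 2, 1 and 3 counts in wild type and 11, 51 and 5 in 5XFAD. S100a8, another gene of the list, had 1, 5 and 5 against 2, 33 and 6. The part of any of these cells in the differences of the 10 genes was not tested.

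The binding partners of the 10 genes were listed by known binding. Of 15 partners 13 could be tested. At 6 months 1 was higher in 5XFAD and at 11 months 4 were, against 1.3% and 3.8% of all tested genes. The medians were 0.18 and 0.84 on the log2 scale. Lgals3, which encodes galectin-3, a ligand of LAG-3, had 17 to 43 counts in wild type and 61 to 99 in 5XFAD at 6 months, and 11 to 15 against 146 to 177 at 11 months. It rose by 1.59 ± 0.30 (edgeR adjusted p = 0.0134) and 3.61 ± 0.35 (edgeR adjusted p = 2.1e-05). At 6 months it did not pass without the second or the fourth wild-type or the first 5XFAD library, or with only the groups compared in the model. The MHC class II genes H2-Aa and H2-Ab1, whose products bind LAG-3, rose at 11 months by 3.01 ± 0.44 (edgeR adjusted p = 0.000863) and 3.09 ± 0.37 (edgeR adjusted p = 0.000134). H2-Aa had 23, 22 and 36 counts in wild type and 185, 199 and 289 in 5XFAD at that age. Lgals9, which encodes galectin-9, a ligand of TIM-3, had a log2 fold change of 0.83 ± 0.19 at 6 months (edgeR adjusted p = 0.0557) and rose by 1.35 ± 0.21 at 11 months (edgeR adjusted p = 0.0011).

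The other partners named here did not pass or had too few counts for the test. Cd80, the sister ligand of CD86, had 11 counts in each wild-type library and 33, 17 and 33 in 5XFAD at 11 months, a log2 fold change of 1.29 ± 0.40 (edgeR adjusted p = 0.0936). Cd28, a receptor of both, had 4, 7 and 3 counts in wild type and 21, 5 and 19 in 5XFAD (edgeR adjusted p = 0.245). Ctla4, the inhibitory receptor of both, had 0 to 5 counts in every library, and the PD-1 ligand Pdcd1lg2 had 0 to 3, against the 131 to 174.94 counts of Cd274 in 5XFAD at 11 months. Tnfrsf8, which encodes CD30, varied widely, with 65, 236 and 51 counts in wild type and 231, 136 and 275 in 5XFAD (log2 fold change 0.84 ± 0.58, edgeR adjusted p = 0.548). Cd200, the neuronal ligand of CD200R1, had 1159 to 2088 counts in wild type and 1491 to 1572 in 5XFAD at 11 months, a log2 fold change of -0.13 ± 0.21 (edgeR adjusted p = 0.827).

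Of 32 other checkpoint and costimulatory genes only 15 had enough counts for the test. Of these 2 were higher in 5XFAD at 6 months and 3 at 11 months, against 1.3% and 3.8% of all tested genes. In the list 0 were lower, and the medians of 0 and 0.08 lay close to those of all genes. Cd48, a cell-surface ligand of leukocytes, had 20, 12, 12 and 18 counts in wild type and 63, 67 and 108 in 5XFAD at 6 months, and 18, 28 and 20 against 190, 135 and 226 at 11 months. It rose by 2.34 ± 0.28 (edgeR adjusted p = 0.000349) and 3.02 ± 0.30 (edgeR adjusted p = 2.5e-05). Lair1, an inhibitory collagen receptor, rose by 0.81 ± 0.18 (edgeR adjusted p = 0.04) and 1.46 ± 0.19 (edgeR adjusted p = 0.000285). At 6 months Lair1 passed in the full set of libraries but not when any 1 library of either group was left out. Cd200r4, a relative of Cd200r1, had 1, 6 and 2 counts in wild type and 38, 50 and 56 in 5XFAD at 11 months and rose by 3.91 ± 0.70 (edgeR adjusted p = 0.00346), where Cd200r1 overlapped. The wild-type libraries in which Cd200r4 reached the filter's cutoff were too few for it to pass, so its passing reflects the difference in part. The difference between the 2 relatives was not tested.

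Signalling proteins of inhibitory receptors rose in part. Of 17 listed genes 16 could be tested, of which 2 were higher in 5XFAD at 6 months and 6 at 11 months. The shares of all tested genes were 1.3% and 3.8%, and the medians of the list were 0.07 and 0.21. Ptpn6 had 129, 95, 137 and 130 counts in wild type and 335, 294.98 and 333 in 5XFAD at 6 months, and 122, 202 and 141 against 676, 552 and 904 at 11 months. It rose by 1.38 ± 0.19 (edgeR adjusted p = 0.000926) and 2.16 ± 0.20 (edgeR adjusted p = 1.7e-05). Ptpn11, named beside it after its values were seen, had log2 fold changes of 0.04 ± 0.12 and -0.04 ± 0.13. Inpp5d, which encodes the phosphatase SHIP1, rose by 0.67 ± 0.15 (edgeR adjusted p = 0.0432) and 1.09 ± 0.16 (edgeR adjusted p = 0.00073). At 6 months Inpp5d did not pass when any 1 library of that age was left out, and Ptpn6 did each time. The kinases Lyn and Syk and the adaptor Dok1 rose at 11 months, by 1.31 ± 0.21, 0.75 ± 0.17 and 1.36 ± 0.36. Of the 6, 3 (Inpp5d, Lyn and Ptpn6) passed when the first or the third wild-type or the first or the third 5XFAD library of that age was left out. Dok1 also lost its call without the second wild-type library, with sex as a covariate and on TPM values, and Syk on TPM values and with only the groups compared in the model. Ptpn6, Inpp5d, Lyn and Syk are known from microglia as well as from lymphocytes.

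For the 7 genes with a mean of at least 1 CPM in their highest group, the most similar of 13364 protein-coding genes were sought by Pearson correlation of log2(CPM + 1) over the 13 libraries. The libraries fall into 4 groups that differ in level, so high correlations are common and no p is given. Lag3 was most like C1qc (r = 0.994), Fcrls (0.992) and Ctss (0.991), a complement gene, a microglial receptor gene and a cathepsin gene. Havcr2 was most like Mpeg1 (0.992), Ctss (0.988) and Lgals3bp (0.985). Vsir was most like Inpp5d (0.99), Csf1r (0.99) and Cx3cr1 (0.988), and Cd86 most like Ctsc (0.98), Itgb2 (0.979) and Ctss (0.976). Cd274 stood next to Irgm1 (0.969), Btk (0.966) and Csf1 (0.962). Pdcd1 was nearest to Siglecf (0.985), H2-D1 (0.984) and Grn (0.983), and Tnfsf8 to Lgmn (0.975), Treml2 (0.974) and Ly9 (0.972). With 0.25 in place of 1 as the added value, 14 of the 21 pairs were the same. Those of Pdcd1 all changed, to B2m (0.987), Ctsz (0.987) and Cd68 (0.986).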

How the data were processed

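The deposited files give, per gene and library, RSEM expected counts, which share reads that fit several genes, and TPM. Reads were aligned by the authors with STAR 2.7.1 and quantified with RSEM on GRCm38, according to the submitters' processing notes. No version of RSEM, annotation or strandedness is given in the sources used here. All 55536 gene identifiers matched GENCODE M21. The deposited expected counts were rounded to whole numbers. The authors' TPM values were used to compare levels between genes and, as log2(TPM + 1), in limma 3.58.1 as an alternative. Totals ran from 23618296 to 26615776 counts, and the smallest chi-square per gene over the 78 library pairs was 6.49, so no 2 libraries were alike within sampling noise.

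Genes were kept by filterByExpr in edgeR 4.0.16 (minimum count 10, minimum total 15), scaled by TMM and tested over all 17483 genes with the robust quasi-likelihood test in 1 model of 4 group means, with Benjamini-Hochberg adjustment and a threshold of 0.05, in R 4.3.3. All 13 libraries were grouped by title, and replicate numbers follow accession order and pair nothing. Values after ± are standard errors of log2 fold changes or SDs of levels. Intervals of count ratios are exact 95% intervals from SciPy 1.17.1, and reads without molecular identifiers are not independent molecules, so intervals and floors cover counting error only. The test was checked on simulated data. Alternatives were another scaling (RLE), no filter, a stricter filter (1 CPM in 3 libraries), DESeq2 1.42.0, TPM, sex as a covariate, only the groups compared, and leaving out each library.

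The 10 genes and all gene lists were chosen with earlier results of these data known. Named genes are the 10, in each other list those past the threshold in a genotype comparison (at most 6), and defining genes of the T and natural killer cell and partner lists whatever their values; of the microglial and cortical lists few are named for brevity. Some genes that this rule chose are not reported here. Lists are described by counts and medians, with no list test. Genes with close relatives, such as the Cd200r, H2 and Trbc genes, may share reads between copies and are uncertain to that extent.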

Additional observations from a re-analysis of the deposited data

Results flagged for a closer look

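One value stood apart within its group. Pdcd1 had 0 counts in 1 of the 4 wild-type libraries at 6 months and 1 count in each of the other 3, so that the gap from the lowest library to the next was 0.95 of the range of CPM values, above Dixon's 95% critical value for 4 samples. The difference is 1 count.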

How the results depend on the processing

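No paired analysis was possible because the replicate numbers follow accession order and pair nothing. RLE scaling changed no count of calls among the lists by more than 1.5 times. Without the filter on low counts or with DESeq2, 3 partners were called at 6 months instead of 1, with Lgals9 and H2-Ab1 added. T cell genes called at 11 months were 2 without the filter (Cd247 and Cd8a), and 1 (Cd247) with DESeq2 or with TPM, instead of 0. Of the 10 genes, 3 to 6 were called at 6 months over the settings instead of 4: 3 on TPM or without the first or the second 5XFAD library, 5 without the filter (Tnfsf8 added), 5 with the stricter filter or with only the groups compared (Vsir added), and 6 with DESeq2 (both added). DESeq2 called 2 of the 10 genes for age in wild type, where edgeR called 0. On TPM values, or with sex as a covariate, 1 signalling gene was called at 6 months instead of 2, and with sex 1 other checkpoint gene instead of 2. For age in 5XFAD, sex as a covariate left 2 of the 5 calls, and using only the 5XFAD groups gave 8. When 1 library at a time was left out, calls ranged from 0 to 2 for partners at 6 months, 3 to 6 for signalling genes at 11 months, 0 to 1 for T cell genes at 11 months, 0 to 3 of the 10 genes for age in wild type and 0 to 5 for age in 5XFAD, and were 1 each time for signalling and for other checkpoint genes at 6 months. Some signs turned. The age difference of Cd86 in wild type was -0.16 on TPM values. The difference of Cd5 at 6 months was 0.12 with sex as a covariate and ran from -0.6 to 0.48 over the left-out libraries. Over those libraries the age difference in wild type ran from -0.49 to 0.38 for Pdcd1 and from -0.13 to 0.36 for Cd274, that of Cd200r1 in 5XFAD from -0.14 to 0.68, and the interaction from -0.75 to 0.23 for Cd200r1 and from -0.01 to 0.32 for Havcr2. The cause of these changes was not tested. Over all genes, age in wild type gave 423 higher and 226 lower calls, 1011 and 837 with DESeq2, 266 and 30 on TPM, and 0 and 1 with only the wild-type groups in the model, with left-out libraries running from 0 and 0 without the fourth at 6 months to 998 and 923 without the first at 11 months. Age in 5XFAD gave 847 higher calls, and 88 to 630 with 1 library left out. The interaction gave 1 call, or 28 higher and 2 lower with DESeq2. With promoter windows cut to the 250 bases before the start, AGGAAGT was in 7.69% of all promoters and in the same 3 windows. Depth limits Pdcd1, Tnfsf8, Cd5, Cd3e and Cd200r1 in wild type, where 1 count is a large part of the value.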
